A study of Mus musculus with 16 samples.

Results

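Mouse induced pluripotent stem (iPS) cells were compared with mouse embryonic stem (ES) cells on Illumina BeadChip expression arrays. The comparison takes every array whose cell type label is iPS and every array whose cell type label is ES, 4 of each, so that 8 of the 16 arrays of the series enter it. Each array holds the total RNA of 1 culture dish. The iPS cells are of strain CD1, and their titles name 3F-SOX2, whereas the titles of the preceding OKM stage name 3F alone. The ES cells are of strain 129, and their titles name R26. Both groups grew under one protocol, on mitomycin-treated primary embryonic fibroblasts (MEF) as a feeder layer, with 15% serum and 10 ng/ml of leukemia inhibitory factor (LIF). The 4 OKM and 4 MEF dishes, both CD1, enter the same model and are quoted where they locate a difference. OKM cells shared the culture of the iPS cells, and MEF grew alone in 10% serum.

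The labels do not say how many iPS clones or ES lines the dishes came from, by what route the factors entered, or if they were still present at harvest. The dishes are named independent with no word on how they were kept apart, so the p-values measure the spread between these dishes. Strain, line and cell type change together here and cannot be told apart. Fewer cells of a type and less RNA per cell cannot be told apart either.

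A pluripotent cell can give rise to all tissues of the body, and it is held in that state by a small circuit of transcription factors around Oct4 (the product of Pou5f1), Sox2 and Nanog. In mouse cells grown with LIF and serum, the factors Esrrb, Klf4, Klf2, Tbx3, Nr5a2 and Tcl1 mark the naive state of the early epiblast. Fgf5, Otx2, Pou3f1 and Dnmt3b mark its later, primed state. Reprogramming rebuilds this circuit in a somatic cell, and the ES cell is the usual standard for how far it was rebuilt.

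Levels are given as normalized log2 intensities, so that a difference of 1 is a 2-fold difference, and detection means a p-value under 0.01 for signal above background on that array. Changes are iPS minus ES, so that a positive change is higher in iPS cells. A gene was called when limma's test across all genes gave an adjusted p under 0.05 and the change was at least 2-fold. The median raw intensity per array was 114.7 to 134.2, and 46.4% to 49.1% of probes were detected on the iPS arrays, against 45.8% to 49.0% on the ES arrays. Pearson's r across genes was 0.988 to 0.993 among iPS arrays, 0.984 to 0.995 among ES arrays and 0.905 to 0.930 between the groups, with the genes not being independent replicates. The number of arrays limits the precision, and the median standard error of a change was 0.128.

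ES replicate 5 stood apart from the other ES dishes before any comparison. Its r with them was 0.984 to 0.985, whereas the other ES arrays had r of 0.990 to 0.995 among themselves. In ES cells 23 genes had a standard deviation above 1 between dishes, and ES replicate 5 was the lowest in 22 of them. No gene had such a spread among the iPS dishes. List counts that change when this dish is left out are given both ways.

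The 9 fixed markers of pluripotent cells were detected on all 8 arrays. Their summed level, on the linear intensity scale, was 82670 to 84789 in iPS cells, against 108940 to 120982 in ES cells, at most 5424 in OKM cells and at most 316.4 in MEF. Both labels therefore carried their defining markers, with the iPS sum below every ES sum. Of the 9 markers 4 were called lower in iPS cells and 0 higher, and the bright Dppa5a was not called. A linear sum is weighted towards its brightest genes.

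Of 9455 genes tested, 1749 (18.5%) were called, 1061 (11.2%) higher and 688 (7.28%) lower in iPS cells. The adjusted p alone was under 0.05 for 5851 genes (61.9%), of which 2840 were higher and 3011 lower in iPS cells. Changes of at least 8-fold were called for 138 genes (1.46%), 113 higher and 25 lower in iPS cells. Among the called genes, 1740 (18.4% of those tested) had iPS and ES dishes that did not overlap. The median standard deviation between dishes was 0.18 in iPS and 0.20 in ES cells. A 2-fold change thus leaves little overlap, and the count adds no separate evidence. Uncalled genes without overlap are not in this count. The median change over all genes was -0.04. Without ES replicate 5 there were 1687 calls, 1015 higher and 672 lower in iPS cells, with 155 calls lost and 93 gained. Without background correction 936 genes were called, 628 higher and 308 lower in iPS cells. The counts of called list members below stand beside the 11.2% higher and 7.28% lower of all tested genes.

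**Figure D1:**
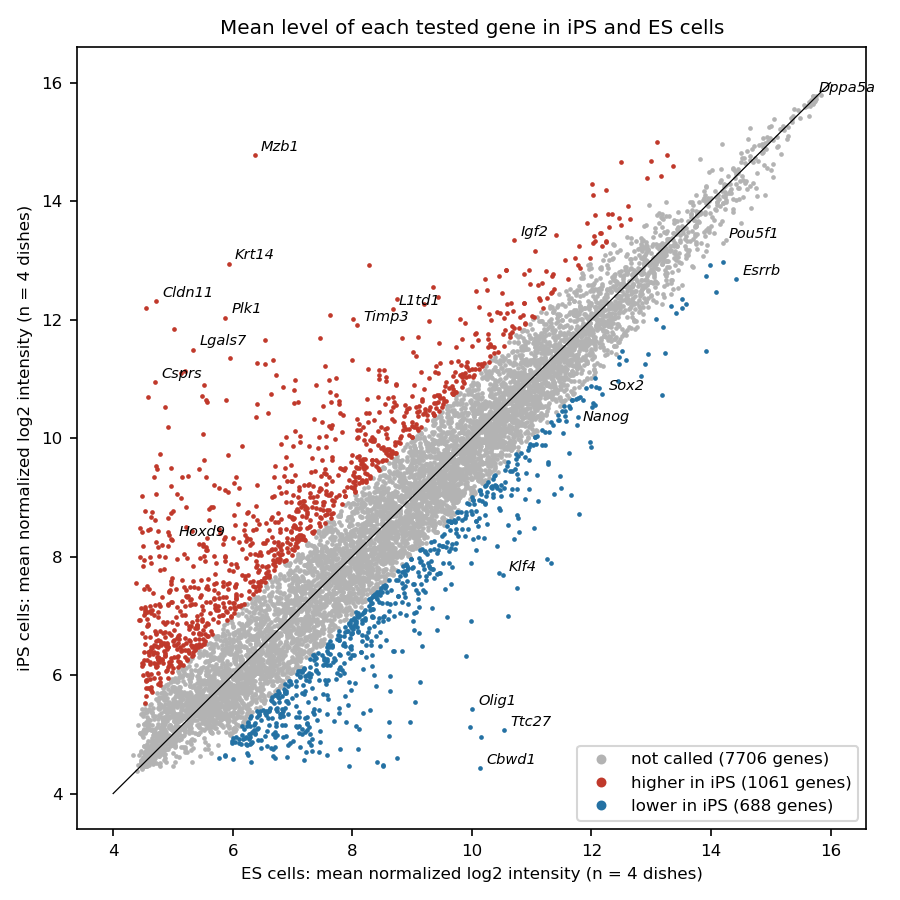
Mean normalized log2 intensity of each of the 9455 tested genes in iPS cells (vertical axis) and ES cells (horizontal axis), 4 dishes each, with called genes in red (1061 higher in iPS) and blue (688 lower in iPS). The line marks equal levels, Dppa5a lies on it at the upper end, and the highest points above it include Mzb1, Krt14 and Plk1.

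Core pluripotency regulators that were called were mostly lower in iPS cells. Of 23 listed regulators 18 were tested, and 9 of them fell and 1 rose, where 7.28% of all tested genes were lower and 11.2% higher. Their median change was -1.17, against -0.04 over all genes. All 18 were detected on every iPS and every ES array. Klf4, 1 of the classical reprogramming factors and a target of LIF signalling, had levels of 7.77, 7.38, 7.94 and 7.64 in iPS cells, against 10.73, 10.73, 10.31 and 10.28 in ES cells. No iPS dish reached any ES dish, and Klf4 fell by 2.83 (standard error 0.15, adjusted p = 3.93e-11), with its 3 probes between -2.83 and -2.71. OKM cells averaged 5.26 and MEF 8.86.

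Nanog, the homeodomain factor that holds the network together, read 10.46, 10.35, 9.90 and 10.15 in iPS cells, against 11.41, 12.09, 12.10 and 11.43 in ES cells. The groups did not overlap, and the change was -1.54 (standard error 0.22, adjusted p = 1.10e-05). Sox2, the factor that the iPS titles name, was 10.62, 10.52, 10.67 and 11.14 in iPS cells, against 12.60, 12.61, 11.88 and 11.65 in ES cells. Sox2 fell by 1.45 (standard error 0.21, adjusted p = 1.41e-05) on 1 probe. Whether that probe reads an introduced copy of Sox2 was not tested. Esrrb, an orphan nuclear receptor near the top of the naive circuit, was bright in both groups, with 12.93, 12.49, 12.66 and 12.65 in iPS cells, against 14.49, 14.76, 14.30 and 14.14 in ES cells. Its change was -1.74 (standard error 0.12, adjusted p = 1.74e-09).

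The remaining regulators of naive cells that fell cover nuclear receptor, T-box, Krüppel-like and cofactor genes. Nr5a2, a nuclear receptor that can stand in for Oct4 in reprogramming, had 7.32, 7.0, 7.04 and 7.14 in iPS cells, against 9.40, 9.47, 9.29 and 9.16 in ES cells. Tcl1, an Akt cofactor of self-renewing ES cells, had 8.68, 9.15, 9.06 and 8.83 in iPS cells, against 11.01, 11.16, 11.39 and 10.89 in ES cells. Tbx3, a T-box factor, had 8.23, 8.29, 8.43 and 8.29 in iPS cells, against 10.10, 10.31, 10.18 and 10.20 in ES cells. In all 3 genes the dishes of each group lay within a narrow band and far from the other group, with changes of -2.21, -2.18 and -1.89. Klf2, a close relative of Klf4, had 10.89, 10.92, 10.90 and 11.12 in iPS cells, against 12.56, 12.80, 12.68 and 11.73 in ES cells, with ES replicate 5 below the other ES dishes and a change of -1.49 with it and -1.72 without it. Sall1, a zinc finger factor, had 8.77, 8.56, 8.59 and 8.65 in iPS cells, against 10.39, 10.49, 9.91 and 9.68 in ES cells and a change of -1.47.

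Other regulators differed less or not detectably. Pou5f1 had 13.14, 13.31, 13.19 and 13.55 in iPS cells, against 14.12, 14.24, 14.03 and 14.40 in ES cells. The groups did not overlap, and the iPS mean was 1.86-fold lower (adjusted p = 7.03e-05), which is under the 2-fold threshold. A second Pou5f1 probe gave -0.69. Klf5 differed in the same way, with a change of -0.80 (adjusted p = 5.76e-07). Smaller differences below zero were measured for Zfp42 (-0.42), Zscan10 (-0.43) and Utf1 (-0.50), all well-known ES cell genes. Sall4 and Lin28a had overlapping dishes, with changes of 0.08 and -0.09 and standard errors of 0.12 and 0.14. Myc, the growth-promoting factor of the reprogramming set, was 6.79, 6.30, 7.0 and 7.25 in iPS cells, against 6.60, 6.43, 5.94 and 5.76 in ES cells, dim in both groups, with a change of 0.65 (adjusted p = 0.0101). Gbx2, a homeobox target of LIF signalling, went the other way, with 12.57, 12.36, 12.38 and 12.18 in iPS cells, against 11.34, 11.07, 11.42 and 11.19 in ES cells and a change of 1.12 (standard error 0.12, adjusted p = 5.97e-07).

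**Figure D2:**
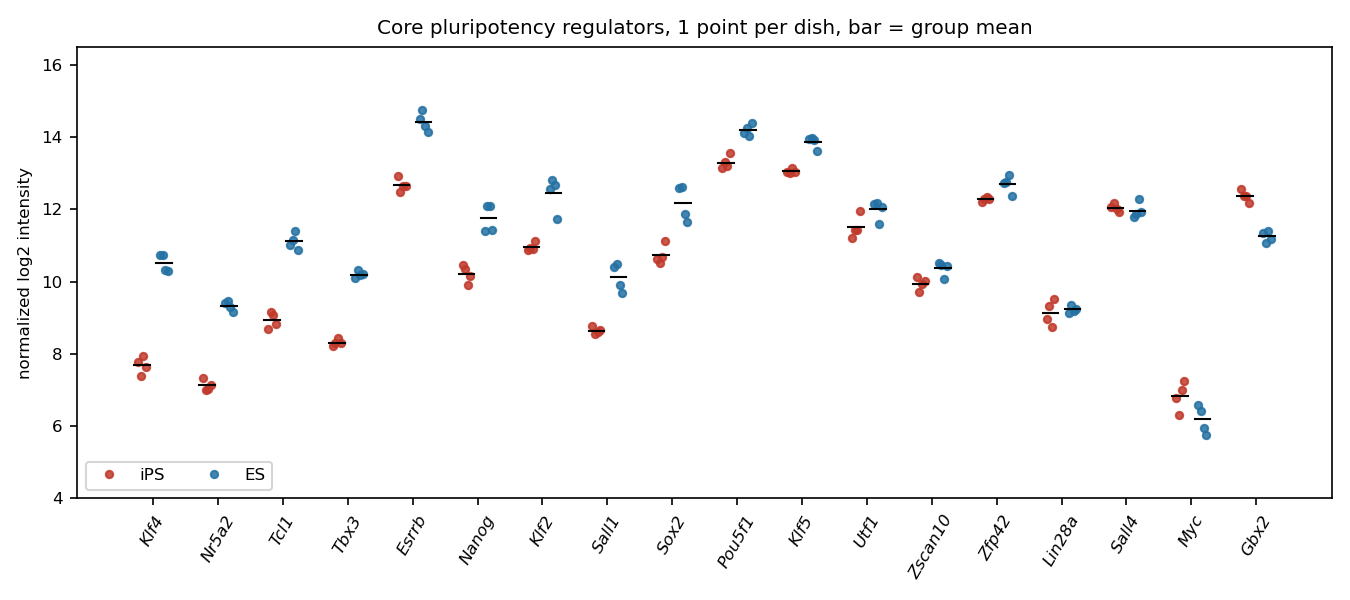
Normalized log2 intensity of the 18 tested core pluripotency regulators, ordered by change, with 1 point per dish, iPS (red) left of ES (blue) and a bar at each group mean. From Klf4 to Sox2 the iPS dishes lie below every ES dish, Sall4 and Lin28a overlap, and Gbx2 lies higher in iPS cells.

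Genes outside the core circuit that are typical of ES cells were more mixed. Of 29 tested members of that list 4 rose and 8 fell (2 and 9 without ES replicate 5), and the median change was -0.14. Several of these genes had overlapping dishes. Dppa5a, an RNA-binding protein gene, had 15.78, 15.80, 15.77 and 15.71 in iPS cells, against 15.75, 15.63, 15.66 and 15.77 in ES cells. Dppa4, a chromatin factor gene, had 13.75, 13.58, 13.71 and 13.58 in iPS cells, against 13.66, 13.58, 13.77 and 14.08 in ES cells, and Dppa3 (Stella) had 9.70, 9.83, 9.88 and 9.85 in iPS cells, against 9.83, 9.47, 10.07 and 10.47 in ES cells. None of these 3 was called. Dnmt3l, the cofactor of the de novo DNA methyltransferases, was 1.84-fold higher in iPS cells without reaching the threshold, with 14.80, 14.61, 14.70 and 14.71 in iPS cells, against 13.99, 13.91, 13.74 and 13.66 in ES cells.

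The 8 members that fell were Fgf4, Trh, Lefty1, Lefty2, Gdf3, Mybl2, Fbxo15 and Alpl. Fgf4, the fibroblast growth factor made by ES cells, had 7.42, 7.50, 7.64 and 7.58 in iPS cells, against 9.61, 9.67, 9.40 and 9.90 in ES cells and fell by 2.11. Trh, the thyrotropin-releasing hormone gene, was lower by 1.61 on the log2 scale. Lefty1, an inhibitor of Nodal that Nodal itself induces, had 11.50, 11.29, 11.32 and 11.62 in iPS cells, against 13.60, 13.66, 13.56 and 12.12 in ES cells. ES replicate 5 lay closer to the iPS dishes than to its own group, and the change of -1.80 became -2.17 without it. Lefty2 and the Nodal-related ligand gene Gdf3 changed by -1.22 and -1.09. Mybl2, a cell cycle transcription factor, changed by -1.31, Fbxo15, an F-box protein gene, by -1.04 and Alpl, the alkaline phosphatase used to stain ES colonies, by -1.04. The largest rise in the list was that of L1td1, an RNA-binding protein gene derived from a transposon, with 12.19, 12.31, 12.10 and 12.11 in iPS cells, against 8.33, 8.78, 9.45 and 8.13 in ES cells and a change of 3.5 (standard error 0.20, adjusted p = 9.25e-11). Pim2, a kinase gene, Otx2 and Pla2g1b were the other members called higher, of which Otx2 and Pla2g1b were not called without ES replicate 5.

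Primed epiblast genes were mostly higher in iPS cells. Of 13 tested members 9 rose and 0 fell (8 and 0 without ES replicate 5), and the median change was 1.26. Car4, a carbonic anhydrase gene, had 9.77, 9.97, 9.56 and 10.14 in iPS cells, against 6.97, 6.66, 6.90 and 7.50 in ES cells, a change of 2.85 (standard error 0.16, adjusted p = 6.62e-11). Fgf5, the classical marker of the primed epiblast, had 6.97, 7.14, 7.24 and 7.06 in iPS cells and was not detected on any ES array, where it read 4.60, 4.47, 4.72 and 4.78. That difference was at least 2.71-fold higher in iPS cells, where the bound sets each ES array to its lowest detected probe. Pou3f1 (Oct6) was 10.52, 10.64, 10.57 and 10.52 in iPS cells, against 8.71, 8.57, 8.75 and 8.91 in ES cells, and Dnmt3b, a de novo DNA methyltransferase, was 13.93, 13.66, 13.66 and 13.61 in iPS cells, against 12.51, 12.34, 12.49 and 12.48 in ES cells. Both rose, by 1.83 and 1.26. A second Dnmt3b probe gave 0.83, short of the threshold. Lef1, a transcription factor of the Wnt pathway, and Wnt8a were also detected on every iPS array and no ES array, at least 2.07-fold and at least 1.44-fold higher. Sall2 rose by 1.54, Krt19 by 1.26 and Otx2 by 1.04. Cldn6, Tead2, Zic2 and Fst were not called.

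Signalling genes were called in both directions. Of 14 tested genes of LIF and STAT3 signalling, 3 rose and 4 fell (2 and 4 without ES replicate 5, where Lif itself, at 1.00, was no longer called). Il6st encodes gp130, the signalling chain of the LIF receptor, and was detected on all 4 ES arrays and no iPS array, with 4.66, 4.56, 4.84 and 4.82 in iPS cells, against 7.37, 7.30, 7.25 and 7.37 in ES cells, at least 3.45-fold lower in iPS cells. The pathway's targets Socs3 and Pim1 fell by 1.07 and 1.55, and Cish, a related feedback inhibitor, rose by 1.46. The gene of the LIF receptor itself, Lifr, was not called (-0.36, adjusted p = 0.0851), and neither was Stat3 (0.11, adjusted p = 0.337).

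In the FGF and ERK list 5 of 17 tested genes rose and 3 fell (3 and 3 without ES replicate 5). The ligands Fgf4, Fgf17 and Fgf15 fell by 2.11, 1.95 and 1.20. Fgfbp1, which releases FGFs from the matrix, was at least 12.7-fold higher in iPS cells, and the ERK target Etv5 rose by 1.05. The ERK targets Dusp6 and Egr1, at 1.01 and 1.04, were called with ES replicate 5 and not without it. In the BMP list, 3 of 15 (20%) rose and 1 (6.67%) fell. Bmp7 fell by 2.18, Id1, a direct BMP target, rose by 1.24, and the BMP antagonist gene Grem1 rose by 3.13. In the Wnt list, 4 of 22 (18.2%) rose and 1 (4.55%) fell, the last on chromosome 8, with the secreted inhibitor gene Wif1 at least 3.18-fold higher in iPS cells and another inhibitor gene, Sfrp1, which fell by 2.26. Nodal was not called (-0.36, adjusted p = 0.0766), and in the Nodal and Lefty list 2 of 12 rose and 3 fell.

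The largest changes of all were not in pluripotency genes. Mzb1, which encodes a chaperone cofactor of antibody-secreting cells, had 14.63, 14.79, 14.83 and 14.87 in iPS cells, against 6.38, 6.34, 6.09 and 6.65 in ES cells, a change of 8.41 (standard error 0.12, adjusted p = 1.11e-18). Tph1, which makes the first step of serotonin synthesis outside the brain, was at least 91.9-fold higher in iPS cells, and Cldn11, a tight junction gene of myelin and Sertoli cells, at least 100.3-fold higher. Krt14, the keratin of basal epidermis, had 12.996, 12.89, 13.03 and 12.86 in iPS cells, against 6.01, 5.63, 5.94 and 6.15 in ES cells. It was also high in OKM cells (11.66) and in MEF (9.09). Scg5, a neuroendocrine secretory protein gene, was at least 72.6-fold higher, Csprs at least 39-fold higher, Lgals7, a galectin of stratified epithelia, at least 56.8-fold higher, Icam2, an adhesion molecule of endothelium and leukocytes, at least 32.7-fold higher, and Avil, an actin-binding protein gene of the villin family, at least 43.4-fold higher. All of these but Krt14 and Mzb1 were undetected on every ES array.

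Plk1, the kinase that drives entry into mitosis, stood out among these genes because every dividing cell needs it. Its levels were 12.04, 12.09, 12.05 and 11.95 in iPS cells, against 5.96, 6.0, 5.87 and 5.67 in ES cells. The OKM and MEF means were 11.66 and 11.09, so the ES arrays were apart from all 12 CD1 arrays. It was the only call among 18 tested mitotic genes, with 1 higher and 0 lower. Plk1 rests on a single probe.

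The largest changes below zero were of the same abrupt kind. Cbwd1 had 4.41, 4.38, 4.44 and 4.48 in iPS cells, against 10.01, 9.74, 10.38 and 10.42 in ES cells, and it was at least 24.3-fold lower in iPS cells. Ttc27, a tetratricopeptide repeat gene, was at least 32-fold lower, Wdr46, a nucleolar WD repeat gene, at least 24.5-fold lower, with a change of -5.34 on its second probe, and Apoa2, an apolipoprotein gene of high-density lipoprotein, at least 21.5-fold lower. Olig1, a basic helix-loop-helix factor of oligodendrocytes, had 5.38, 5.54, 5.40 and 5.36 in iPS cells, against 9.75, 9.83, 9.96 and 10.46 in ES cells. Aqr, a spliceosome helicase gene, was at least 9.23-fold lower on its brightest probe, but its second probe gave -0.71. Hal, which breaks down histidine, was at least 7.84-fold lower, Tmem68 at least 7.91-fold, Gm3696 at least 7.34-fold and Crtac1 at least 10.8-fold lower.

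Detection differed between the groups for a set of genes. In iPS cells 291 genes were detected on all 4 arrays while no ES array detected them, and 132 genes showed the opposite pattern. For 104 genes detection covered all 12 CD1 arrays (iPS, OKM and MEF) and no ES array. Cldn11, Hs3st3a1, Ugt1a6a, Avil, Sema5a and Drp2 were the brightest of these by mean level. A further 92 genes were detected on all 4 ES arrays and none of the 12 CD1 arrays, led by Wdr46, Cbwd1, Apoa2, Crtac1, Aqr and Tmem68. The classes are defined by a threshold on detection, and 54 of the 104 and 51 of the 92 genes had a bound under 2-fold. Strain and line divide the arrays in the same way, and Eif2s3y of the Y chromosome is in the second class. Whether a probe matches the transcripts of both strains equally was not tested, since the probe sequences were not used here.

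Probes of a gene did not always move together. Among the called genes 419 had several kept probes, and in 231 every probe changed at least 2-fold the same way. In 188 a probe fell short of 2-fold, in 12 a probe had the opposite sign, and in 20 the probes lay apart by over 2 on the log2 scale. Ugt1a6a, a glucuronosyltransferase gene, gave changes of 5.28, 0.94 and 0.75 on its 3 probes, and Smarca2, a chromatin remodeller gene, 3.67 and 0.46. The other 1330 called genes rest on 1 probe.

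In iPS cells 23 genes were detected on all 4 arrays and on none of the other 12 arrays of the series. They include Fthl17f, a ferritin-like gene on the X chromosome, with 7.31, 7.37, 7.30 and 7.38 in iPS cells, against 5.04, 5.30, 5.33 and 5.21 in ES cells. Fermt1, an integrin regulator of epithelia, had 7.40, 7.15, 7.18 and 7.07 in iPS cells, against 4.83, 4.84, 4.90 and 5.10 in ES cells. The trophoblast genes Plac1 and Gata3 and the primed gene Wnt8a belong to this set as well. Fthl17f was at least 3.19-fold and Fermt1 at least 2.9-fold higher than in ES cells. These bounds were the largest of the set, and 19 of its 23 genes had a bound under 2-fold. This set, too, is defined by a threshold on detection.

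Hox genes, which set position along the body axis and are silent in pluripotent cells, had calls only in the higher direction. Of 23 tested, 14 rose and 0 fell, with and without ES replicate 5, and the median change was 1.42. Hoxd9 had 8.19, 8.31, 8.23 and 8.38 in iPS cells, against 4.90, 5.24, 5.00 and 4.81 in ES cells and was at least 6.12-fold higher. Hoxd8 had 7.92, 8.02, 7.60 and 7.61 in iPS cells, against 4.90, 4.86, 5.12 and 4.50 in ES cells, at least 4.35-fold higher. Other Hox genes detected on all 12 CD1 arrays and no ES array had lower bounds. Hoxb5 and Hoxd4 were each at least 2.24-fold higher. The bounds of Hoxa2, Hoxb4, Hoxb6 and Hoxd10 were under 2-fold, at 1.39, 1.67, 1.20 and 1.75. Hoxb2 rose by 2.61 and Hoxa5 by 2.55, each detected on 2 of 4 ES arrays. Hoxc6, the brightest in the list among those called, had 10.92, 10.67, 10.76 and 10.39 in iPS cells, against 8.79, 8.32, 8.92 and 7.71 in ES cells. Its OKM and MEF means were 12.16 and 12.21, above both pluripotent groups, and those of Hoxd9 were 8.74 and 8.60. The OKM cells and the MEF thus had Hox levels at or above those of the iPS cells in these 2 genes. Hoxd10 averaged 6.01 in OKM cells, below its 6.47 in iPS cells, and 8.41 in MEF.

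Keratins, the intermediate filament proteins of epithelia, were counted as a family after their values were seen. Of 14 tested, 8 rose and 2 fell. Krt16, a keratin of activated epidermis, had 10.76, 10.82, 10.87 and 11.11 in iPS cells, against 5.40, 5.65, 5.36 and 5.66 in ES cells, and Krt13, a keratin of moist epithelia, was at least 14.6-fold higher. The simple-epithelium pair Krt8 and Krt18 rose by 1.85 and 1.66. Krt17 and Krt42 moved the other way, by -1.87 and -1.27. The 31 tested genes of the wider epithelial list had 4 rises and 8 falls (4 and 7 without ES replicate 5). Cdh1 (E-cadherin), which joins the cells of a colony, had 9.14, 9.35, 8.99 and 9.03 in iPS cells, against 9.90, 10.13, 10.30 and 10.23 in ES cells and a change of -1.01, short of the threshold without ES replicate 5. Pkp2, a desmosome gene, fell by 1.69, Grhl3 by 1.66 and Elf3 by 1.17, while Grhl2, a regulator of epithelial identity, rose by 1.51.

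S100 calcium-binding proteins, also a family added after the values were seen, had 6 rises and 0 falls among 13 tested (5 without ES replicate 5). S100a8, known from neutrophils and inflamed epithelia, had 10.78, 11.19, 11.07 and 10.56 in iPS cells, against 7.52, 7.11, 8.30 and 6.64 in ES cells, and S100a3 was at least 10.4-fold higher. Among Serpin protease inhibitors, 6 of 12 rose and 1 fell (5 and 1 without ES replicate 5). Serpina3n rose by 4.65, with ES replicate 5 at 5.02 and the other ES dishes at 7.02 to 7.40, and by 4.10 without that dish.

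Genes of extraembryonic lineages were more often higher. Of 20 trophoblast genes tested 10 rose and 1 fell (11 and 1 without ES replicate 5), with a median of 1.05. Cdx2, the factor that specifies trophectoderm, had 6.66, 6.28, 6.72 and 6.63 in iPS cells, against 4.77, 4.70, 4.84 and 4.80 in ES cells, and it was at least 1.87-fold higher in iPS cells. Tfap2a, an AP-2 factor, was at least 9.0-fold higher, and its relative Tfap2c, which is also an ES cell gene, fell by 1.09. Gata3 and Plac1 were at least 1.5-fold and at least 1.79-fold higher and near the detection limit. The X-linked homeobox genes Rhox6 and Rhox9 rose by 1.67 and 1.21, and ES replicate 5 read higher than the other ES dishes in both. The summed level of the 2 measured trophoblast markers was 154.6 to 190.8 in iPS cells and 48.8 to 52.2 in ES cells, where neither was detected on any array.

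Of 17 primitive endoderm genes 4 rose and 1 fell (5 and 1 without ES replicate 5), with a median of 0.86. Dab2, an endocytic adaptor of that layer, had 11.45, 10.76, 10.98 and 10.95 in iPS cells, against 8.94, 8.68, 8.60 and 8.03 in ES cells. Lama1, a laminin of its basement membrane, went the opposite way, with 7.53, 7.61, 8.08 and 7.70 in iPS cells, against 10.64, 10.68, 10.37 and 10.15 in ES cells. Dab2 averaged 12.43 in OKM cells and 11.79 in MEF. The sum of the 3 measured markers of primitive endoderm was 2098 to 3255 in iPS cells, against 525.1 to 679.2 in ES cells. It was 5598 to 5723 in OKM cells and 3974 to 4322 in MEF. Only 1 of these 3 markers, Dab2, was called higher and 0 were called lower. Among 9 neural genes 3 rose and 0 fell. Zic1 was at least 3.46-fold higher in iPS cells, Stmn2 rose by 2.42 and Nes (nestin) by 1.83. The 6 tested mesendoderm genes had 1 call, Gsc, at 1.23.

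Germline genes were more often lower. Of 17 tested 2 rose and 6 fell, with a median of -0.77. Tex14, which builds the bridges between germ cells, had 7.91, 7.22, 7.47 and 7.21 in iPS cells, against 9.72, 9.72, 9.64 and 9.13 in ES cells and fell by 2.10. Mov10l1, a helicase of the piRNA pathway, had 6.13, 5.73, 6.02 and 5.80 in iPS cells, against 7.79, 7.96, 7.33 and 7.33 in ES cells and fell by 1.68. Ddx4 (Vasa) and the sperm lactate dehydrogenase gene Ldhc fell by 1.34 and 1.48. Piwil2, a piRNA-binding Piwi protein, rose by 1.30. All 5 were detected on every iPS and ES array.

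**Figure D3:**
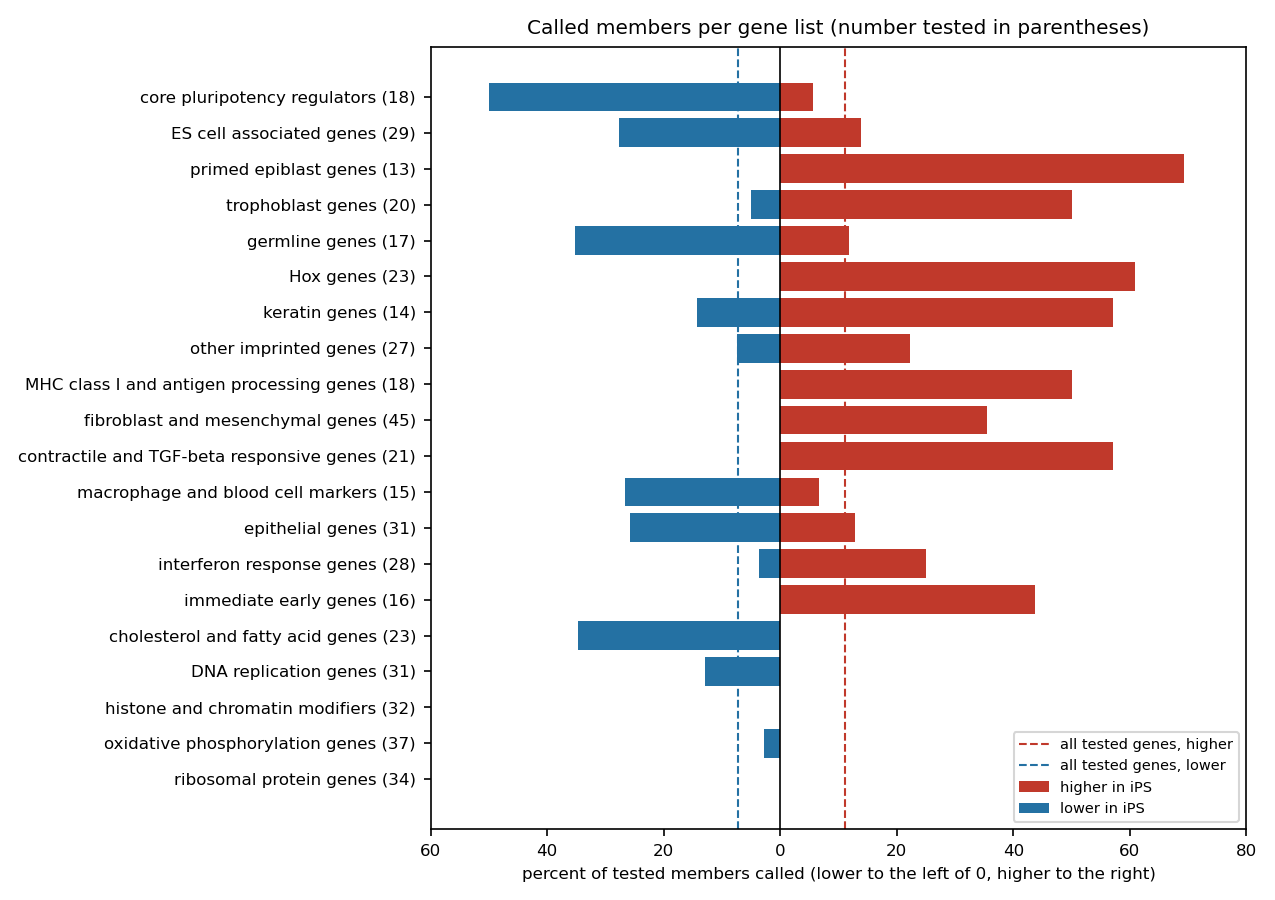
Percent of the tested members of 20 gene lists that were called higher (red, to the right of 0) or lower (blue, to the left) in iPS cells than in ES cells, with the number tested in parentheses and dashed lines at 11.2% and 7.28% for all tested genes. Core pluripotency regulators extend furthest to the left and primed epiblast and Hox genes furthest to the right, while chromatin modifiers and ribosomal protein genes have no bar.

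Imprinted genes, which are expressed from the copy of 1 parent and are often disturbed in cultured stem cells, had calls in both directions. Of 27 tested outside the Dlk1-Dio3 region, 6 (22.2%) rose and 2 (7.41%) fell, and the median was 0.00. The share that fell lay near the 7.28% of all tested genes. Igf2, a fetal growth factor, had 13.39, 13.25, 13.53 and 13.21 in iPS cells, against 10.92, 10.75, 10.89 and 10.26 in ES cells, a change of 2.64 (standard error 0.12, adjusted p = 7.74e-12). Ddc and its neighbour Grb10, a growth inhibitor, rose by 2.16 and 1.89, and Ndn by 1.40. H13 and Gnas rose by 1.35 and 1.15. Nnat was detected on no iPS array and every ES array, with 4.75, 4.88, 5.18 and 4.75 in iPS cells, against 6.99, 7.01, 6.87 and 7.14 in ES cells, at least 2.76-fold lower in iPS cells. Mest, a mesodermal gene, had 6.47, 6.41, 6.38 and 6.72 in iPS cells, against 8.34, 8.82, 8.27 and 8.42 in ES cells and fell by 1.97. In MEF, Igf2, Grb10, Ndn and Mest averaged 15.65, 13.79, 12.70 and 10.01. The level of an imprinted gene does not say which parental copy it comes from.

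The Dlk1-Dio3 region is known for its silencing in some mouse iPS lines. Of its 6 listed genes 2 were tested, and its maternally expressed RNAs were not measured here. Dlk1, a Notch-like ligand, had 6.79, 6.26, 6.60 and 6.60 in iPS cells, against 6.35, 6.12, 6.11 and 5.82 in ES cells, with overlapping dishes. Dio3, an enzyme that inactivates thyroid hormone, was detected on 0 of 4 iPS arrays and 2 of 4 ES arrays, with 5.00, 5.06, 5.19 and 5.17 in iPS cells, against 5.52, 5.49, 5.67 and 5.75 in ES cells. Neither was called.

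The sex-linked genes gave an uneven picture. Eif2s3y, a translation factor gene on the Y chromosome, had 4.62, 4.46, 4.42 and 4.35 in iPS cells, against 7.32, 7.91, 8.48 and 8.06 in ES cells. It was detected on all ES arrays and on none of the 12 CD1 arrays, and it was at least 5.29-fold lower in iPS cells. Kdm5d and Uty, also on the Y chromosome, were near the detection limit. Kdm5d had 5.57, 5.47, 5.34 and 5.08 in iPS cells, against 4.48, 4.47, 4.54 and 4.53 in ES cells, detected on 1 of 4 iPS arrays and 0 of 4 ES arrays. Xist, the RNA of the inactive X chromosome, was detected on no iPS and no ES array.

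Calls among genes of fibroblasts and connective tissue were all higher in iPS cells, and most of the list was not called. Of 45 tested fibroblast and mesenchymal genes 16 rose and 0 fell, and 12 and 0 without ES replicate 5. Timp3, a metalloproteinase inhibitor, had 12.03, 11.91, 11.96 and 11.73 in iPS cells, against 8.33, 8.07, 8.42 and 7.49 in ES cells, a change of 3.83 (standard error 0.15, adjusted p = 9.83e-13). Cd44, a hyaluronan receptor, had 10.36, 10.15, 10.33 and 10.44 in iPS cells, against 7.96, 7.70, 7.67 and 6.13 in ES cells. Lgals1, a galectin, had 13.94, 14.35, 14.15 and 14.30 in iPS cells, against 12.46, 12.48, 12.52 and 11.53 in ES cells. Dcn (decorin), a collagen-binding proteoglycan, had 12.63, 13.12, 12.56 and 12.79 in iPS cells, against 11.25, 11.30, 11.48 and 9.5 in ES cells, and its change of 1.90 became 1.43 without ES replicate 5. Not all fibroblast genes rose. Col1a1, a main collagen chain, had 9.37, 8.94, 9.13 and 8.97 in iPS cells, against 9.54, 9.28, 8.88 and 7.16 in ES cells, and Lum (lumican) had 7.95, 8.23, 8.02 and 7.70 in iPS cells, against 7.98, 7.96, 7.79 and 5.21 in ES cells. In both genes ES replicate 5 was far below the other 3 ES dishes, which lay near the iPS dishes.

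The summed level of the 10 measured fibroblast markers was 11781 to 15051 in iPS cells, against 2420 in ES replicate 5 and 6440 to 6631 in the other ES dishes. It was 13626 to 14970 in OKM cells and 118173 to 124537 in MEF. Of the 10 markers 3 rose and 0 fell, and Col1a2, Col3a1 and Ogn were detected on no iPS and no ES array. Both pluripotent groups grew on fibroblast feeders, and the part of feeder RNA in these changes was not tested.

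Contractile genes and genes that respond to TGF-β had 12 rises and 0 falls among 21 tested (10 and 0 without ES replicate 5), with a median of 1.06. Actg2, a smooth muscle actin, had 10.66, 11.07, 11.05 and 11.11 in iPS cells, against 7.28, 6.98, 7.21 and 6.70 in ES cells, a change of 3.93 (standard error 0.13, adjusted p = 4.27e-14). Tgfbr2, the ligand-binding TGF-β receptor, had 10.98, 11.05, 10.99 and 10.92 in iPS cells, against 7.90, 7.81, 8.11 and 6.59 in ES cells. The iPS level of Tgfbr2 was above every ES dish by more than 2 on the log2 scale. Ahnak rose by 2.55, Ltbp1, which stores TGF-β in the matrix, by 2.16, and Acta2 by 1.5. Mylk was detected on every iPS array and no ES array, at least 2.12-fold higher. Actg2 and Tgfbr2 were also bright in MEF, where they averaged 13.32 and 12.89, and in OKM cells, where they averaged 13.19 and 11.59. Mylk averaged 12.14 in MEF and 6.92 in OKM cells.

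Immediate early genes, which respond to serum and stress within minutes, had 7 rises and 0 falls among 16 tested (6 and 0 without ES replicate 5). Fos had 9.03, 8.59, 8.51 and 8.36 in iPS cells, against 6.22, 6.22, 6.60 and 6.59 in ES cells and Jun 7.75, 8.41, 8.49 and 8.35 in iPS cells, against 7.30, 7.09, 6.91 and 5.72 in ES cells. Fos rose by 2.22 and Jun by 1.5. Among p53 targets and cell cycle inhibitors 5 of 28 rose and 0 fell. Cdkn2a, which encodes the inhibitors p16 and p19Arf and is a known barrier to reprogramming, had 9.60, 10.34, 9.76 and 10.09 in iPS cells, against 8.44, 8.5, 8.55 and 7.82 in ES cells, and its second probe gave 1.45 beside 1.62. Fas, a death receptor, rose by 2.77.

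**Figure D4:**
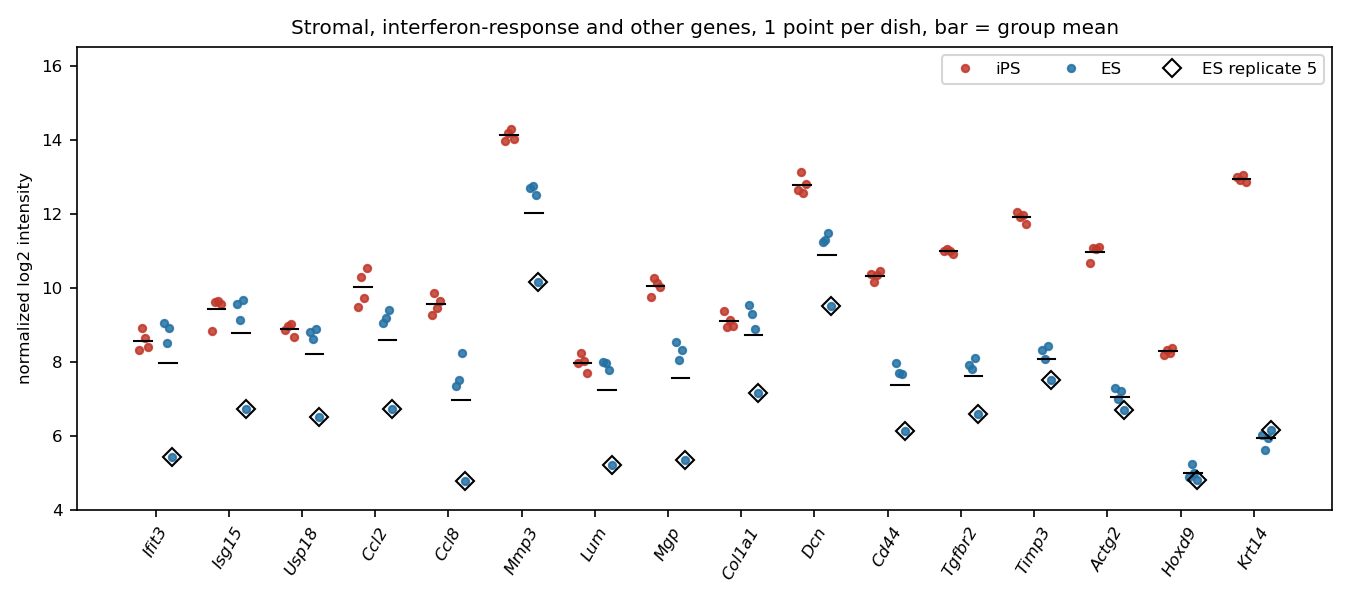
Normalized log2 intensity of 16 genes with 1 point per dish, iPS (red) left of ES (blue), a bar at each group mean and a black diamond around ES replicate 5. From Ifit3 to Tgfbr2 the diamond lies below the other ES dishes, and at Actg2, Hoxd9 and Krt14 all ES dishes lie together below the iPS dishes.

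Transcripts of the antigen presentation pathway had calls in 1 direction. Of 18 tested genes of the MHC class I pathway 9 rose and 0 fell (7 and 0 without ES replicate 5), with a median of 0.99. B2m, the shared light chain of class I molecules, had 13.46, 13.70, 13.57 and 13.54 in iPS cells, against 12.45, 12.44, 12.72 and 11.55 in ES cells. H2-K1, a class I heavy chain, had 7.90, 8.27, 8.37 and 8.21 in iPS cells, against 6.71, 6.26, 6.24 and 5.92 in ES cells, and Tap2, the peptide transporter, had 8.46, 8.94, 9.05 and 8.79 in iPS cells, against 7.13, 7.20, 7.16 and 6.82 in ES cells. Their changes were 1.28, 1.90 and 1.73. The class I heavy chains are highly alike and differ between mouse strains, so the probes of H2 genes may not separate them.

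Interferon-response genes had 7 rises and 1 fall among 28 tested (5 and 1 without ES replicate 5). Irf1, a transcription factor induced by interferon, had 12.43, 12.33, 12.24 and 12.06 in iPS cells, against 10.55, 10.30, 10.91 and 10.57 in ES cells, and Gbp2, a guanylate-binding protein, had 9.77, 9.59, 9.72 and 9.54 in iPS cells, against 7.90, 7.43, 7.47 and 6.50 in ES cells. Ifitm1, a membrane protein that is also expressed in early embryos, fell by 1.90 and was the member with that direction. Many classical members were not called. Ifit3 had 8.32, 8.91, 8.65 and 8.40 in iPS cells, against 9.04, 8.5, 8.90 and 5.43 in ES cells, and Isg15 had 8.83, 9.62, 9.65 and 9.55 in iPS cells, against 9.55, 9.11, 9.68 and 6.72 in ES cells. In both, 3 ES dishes lay near the iPS dishes and ES replicate 5 far below.

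Some genes of macrophages and blood were lower in iPS cells. Of 15 tested 1 rose and 4 fell (1 and 5 without ES replicate 5). Lyz2, the lysozyme of macrophages, had 8.89, 9.21, 9.20 and 8.88 in iPS cells, against 11.96, 11.54, 11.97 and 11.13 in ES cells, and Lyz1 had 10.58, 11.02, 10.59 and 10.72 in iPS cells, against 13.26, 13.44, 13.48 and 12.55 in ES cells. Lyz1 and Lyz2 are near-identical genes and their probes may read each other. Fcgr3, an Fc receptor, fell by 2.36. The summed level of the 4 measured macrophage markers was 542.1 to 672.1 in iPS cells, 2343 to 4146 in ES cells and 13438 to 14322 in MEF. Only 1 of these 4 markers, Lyz2, was called lower and 0 were called higher. Of the 4, 3 were detected on no iPS array and 2 on no ES array. C1qb and C1qc were detected on no iPS and no ES array. The part of other cells in these values was not tested.

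A whole chromosome was shifted. Of 503 tested genes of chromosome 8, 25 (4.97%) rose and 93 (18.5%) fell, while 11.6% of the 8952 other genes rose and 6.65% fell. Their median change was -0.48, and 77.7% were below 0, against 51.3% of the others. Setting chromosome 12 aside, the medians of the other 18 chromosomes with enough genes ran from -0.11 to 0.06. In gene order along the chromosome, all 13 bins of up to 40 genes had a median below 0, from -0.69 to -0.13. The 361 genes of chromosome 8 that were detected on all 16 arrays had a median of -0.52.

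The arrays place this difference in the ES cells. Relative to the genes of all other chromosomes, the median level of chromosome 8 genes was -0.14, -0.12, -0.10 and -0.09 on the iPS arrays and 0.39, 0.44, 0.37 and 0.33 on the ES arrays. OKM arrays lay between -0.16 and -0.14 and MEF arrays between -0.09 and -0.05. The median change of chromosome 8 genes was 0.02 for iPS minus MEF and 0.01 for iPS minus OKM, against 0.45 for ES minus MEF and 0.48 for ES minus OKM (these contrasts share arrays). DNA was not measured, and a difference in chromosome number was not tested. Chromosome 8 carries Klf2, Sall1 and Zfp42 of the core list, and without them 7 of 15 core regulators fell and 1 rose. It also carries Cdh1, Sfrp1, Plvap and Orc6.

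Chromosome 12 was shifted the other way. Of 301 tested genes 46 (15.3%) rose and 10 (3.32%) fell, with a median of 0.25. The first 4 bins of up to 40 genes, 160 genes in all, had medians of 0.22 to 0.49, with 25 rises and 3 falls. The last 4 bins, 141 genes, had medians of -0.02 to 0.20, with 21 rises and 7 falls. Relative to other genes, the iPS arrays lay at 0.12 to 0.17 and the ES arrays at -0.16 to -0.10, with OKM at -0.05 to -0.02 and MEF at -0.03 to 0.10. Esrrb and Tcl1, which fell, lie on this chromosome.

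**Figure D5:**
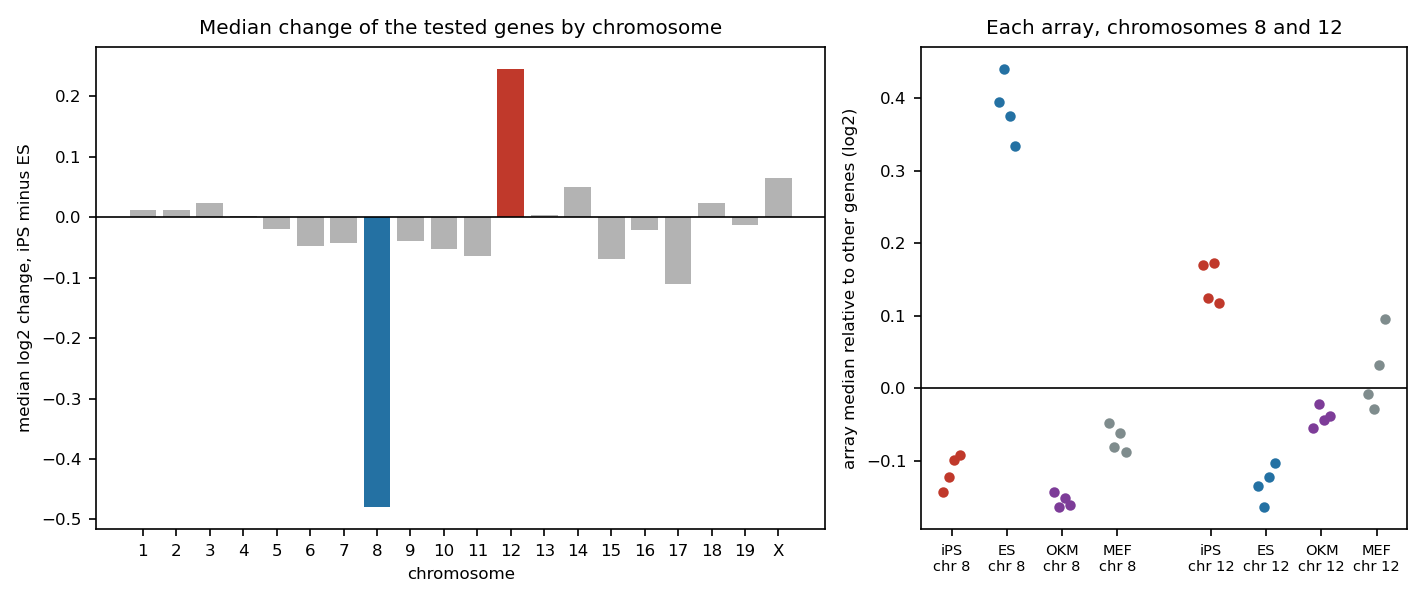
Left, median log2 change (iPS minus ES) of the tested genes of each chromosome, with chromosome 8 in blue at -0.48 and chromosome 12 in red at 0.25. Right, the median level of chromosome 8 and chromosome 12 genes on each array relative to all other genes, with 1 point per array, where the ES arrays lie above all others for chromosome 8.

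Some genes of cholesterol and fatty acid synthesis were lower in iPS cells. Of 23 tested, 0 rose and 8 fell (0 and 6 without ES replicate 5), with a median of -0.77. Leaving out the 2 members on chromosome 8, 6 of 21 fell. Msmo1, an enzyme that removes methyl groups from sterol precursors, had 9.45, 9.02, 8.99 and 8.74 in iPS cells, against 11.02, 10.82, 11.44 and 12.19 in ES cells, and it fell by 2.32. Stard4, a cholesterol carrier, had 7.64, 8.08, 7.57 and 8.03 in iPS cells, against 9.35, 9.36, 9.5 and 10.44 in ES cells. Lss (lanosterol synthase), which closes the sterol rings, had 8.80, 8.05, 8.24 and 8.28 in iPS cells, against 9.68, 9.89, 9.51 and 10.48 in ES cells, and Cyp51, the next enzyme, had 9.36, 9.18, 9.36 and 9.13 in iPS cells, against 10.38, 10.19, 10.34 and 11.33 in ES cells. Insig1, the sterol sensor that holds the pathway in check, had 8.38, 8.63, 8.38 and 8.48 in iPS cells, against 9.83, 9.75, 9.52 and 10.63 in ES cells. ES replicate 5 was the highest ES dish in all 5 genes, and all 5 calls held without it. Mvd fell by 1.64, and Pmvk and Scd2, at -1.03 and -1.15, were not called without that dish.

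Promoters of this pathway are known to bind NF-Y, a factor that reads the letters CCAAT, next to the sterol-regulated SREBP proteins. The windows from 250 bases before to 50 after the gene start are shown for 3 genes that fell, to let the letters be seen beside the values. They are RefSeq sequences of GRCm38.p6, a C57BL/6J genome that is of neither strain studied here, written 5′ to 3′ on the strand of the gene, with CCAAT and its reverse complement ATTGG in capitals.
Msmo1: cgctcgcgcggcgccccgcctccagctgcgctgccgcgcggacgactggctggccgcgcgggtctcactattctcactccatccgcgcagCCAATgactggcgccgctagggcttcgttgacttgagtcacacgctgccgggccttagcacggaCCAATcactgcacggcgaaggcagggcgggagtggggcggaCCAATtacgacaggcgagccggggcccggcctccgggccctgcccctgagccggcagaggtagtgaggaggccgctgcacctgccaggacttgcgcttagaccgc
Lss: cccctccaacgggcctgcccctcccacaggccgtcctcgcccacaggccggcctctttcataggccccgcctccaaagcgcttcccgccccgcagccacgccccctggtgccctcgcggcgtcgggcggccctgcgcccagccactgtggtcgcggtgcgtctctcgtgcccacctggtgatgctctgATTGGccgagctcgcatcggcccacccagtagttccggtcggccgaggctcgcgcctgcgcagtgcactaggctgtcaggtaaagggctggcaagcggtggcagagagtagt
Insig1: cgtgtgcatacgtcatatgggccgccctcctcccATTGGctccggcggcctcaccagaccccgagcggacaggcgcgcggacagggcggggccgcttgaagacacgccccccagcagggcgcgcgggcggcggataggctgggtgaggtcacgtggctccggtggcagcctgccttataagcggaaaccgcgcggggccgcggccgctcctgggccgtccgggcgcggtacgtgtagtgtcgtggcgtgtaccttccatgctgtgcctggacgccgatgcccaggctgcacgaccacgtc
The Msmo1 window is chr8:64733529-64733828 on the minus strand, with 3 such boxes. That of Lss is chr10:76531355-76531654 on the plus strand and that of Insig1 chr5:28071162-28071461 on the plus strand, with 1 box each.

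Of the 23 tested genes 18 matched a promoter in the table, and 16 of them held CCAAT or ATTGG on either strand. All 6 matched genes that fell held one, as did 10 of 12 that were not called. Counted per window, since a gene can have several, 17 of 23 held one, and the share over all 32851 windows of the table was 37.4%. The short sterol motif TCACNCCAC, searched with its reverse complement, was found in 1 matched gene and in 1.24% of all promoters. A match is a description of these letters in a reference genome and does not show binding.

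DNA replication genes had 0 rises and 4 falls among 31 tested (0 and 5 without ES replicate 5), with a median of -0.50. Pold2, a polymerase subunit, fell by 1.26, and Orc6 fell by 1.10. Lig1 fell by 1.06, and Mcm3, part of the replicative helicase, fell by 1.04. Their levels in iPS cells stayed high. Mcm3 read from 10.27 to 10.76 in iPS cells, against 11.19 to 11.77 in ES cells. In glycolysis and the pentose phosphate pathway 1 of 22 rose and 3 fell. Pfkl, a phosphofructokinase subunit, fell by 1.24, and Aldoc by 1.53. Among amino acid transporters and stress genes 7 of 32 rose and 2 fell (5 and 2 without ES replicate 5). The glutamine transporter gene Slc38a5 had 13.14, 12.94, 12.99 and 12.63 in iPS cells, against 8.37, 7.71, 8.34 and 8.71 in ES cells. Ddit3 (CHOP), a factor of the endoplasmic reticulum stress response, fell by 1.22. Among glutathione and antioxidant genes 5 of 35 rose and 1 fell (6 and 1 without ES replicate 5), shares of 14.3% and 2.86% that lie near those of all genes, with Gstp1 at 14.61, 14.65, 14.72 and 14.65 in iPS cells, against 12.73, 12.45, 12.47 and 12.35 in ES cells.

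The listed histone and chromatin modifiers stayed within the threshold, whereas some DNA methylation and Polycomb genes did not. None of 32 tested histone and chromatin modifiers and none of 34 ribosomal protein genes was called, with medians of -0.25 and 0.03. Of 37 oxidative phosphorylation genes 1 fell, Cox7a1, at -1.19, and it was not called without ES replicate 5. Among 24 genes of DNA methylation and Polycomb 5 (20.8%) rose and 1 (4.17%) fell. Besides Dnmt3b, the methyl-binding protein gene Mbd1 rose by 1.95, the Polycomb genes Bmi1 and Phc2 by 1.73 and 1.53 and Cbx8 by 1.27. L3mbtl2 fell by 1.5. Of 165 tested zinc finger genes with a numbered Zfp symbol, a family added after the values were seen, 17 (10.3%) rose and 8 (4.85%) fell, below the shares of all tested genes.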

How the data were processed

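Per the file headers, the deposited non-normalized table gives for each of 25697 probes and 16 arrays an intensity and a detection p-value. The submitters' processing notes name GenomeStudio, and further processing is not given in the sources used here. A second deposited table holds intensities that the authors normalized, and was used as an alternative with values under 16 set to 16. Probes were named through the platform annotation, updated with a RefSeq gene table of GRCm38.p6 (23978 with 1 symbol, 1719 with none), which also gave chromosome and gene order. With limma 3.58.1 in R 4.3.3 (neqc), intensities were background-corrected from the detection p-values, offset by 16, quantile normalized and taken to log2. Probes detected (p under 0.01) on at least 4 of 16 arrays were kept (13782), and the brightest stood for a gene, which left 9455 of 16590 genes. A mean per group was fitted over all 16 arrays (lmFit, eBayes, 12 residual degrees of freedom), two-sided, with Benjamini-Hochberg adjustment over all tested genes. Where a group had 0 detected arrays the fold is given as "at least", from the higher of the lowest detected probe level and the probe's own value on each dim array. The fit and the calls were tested on simulated normalized levels with independent noise and known changes in brighter genes alone. That simulation did not cover background correction, normalization or changes in dim genes. Named genes follow a rule: the reprogramming factors and Nanog, the 10 largest non-overlapping calls per direction, all tested members of the core, Dlk1-Dio3 and sex-linked lists, up to 4 called members per direction of other lists, and the brightest genes of the on/off classes. Other named genes were chosen after their values were seen. The members and lists were chosen with earlier results of these data known. Replicate numbers 1, 2 and 4 occur in both groups, and the deviations of same-numbered dishes correlated at 0.04, -0.14 and -0.29, so they do not pair the dishes. Alternatives covered normalization, background, table, filters, thresholds, the arrays fitted, array weights, the replicate block, the choice of probe per gene, place in the table and each dish left out.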

Additional observations from a re-analysis of the deposited data

Results flagged for a closer look

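In each group of 4 dishes, the named genes and the medians of chromosomes 8 and 12 were examined for a dish far from the other 3 relative to the range. Chance marks about 1 in 20 such groups when they are independent and not chosen by their values. Here the genes share the same dishes, and some were named after their values were seen. The count of marks therefore cannot be judged against that rate. Of 422 groups 35 were marked, 12 in iPS cells and 23 in ES cells, and 19 of the marks in ES cells fell on replicate 5.

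ES replicate 5 was the lowest ES dish in 14 of these. They include genes of fibroblasts and connective tissue, with Cd44 at 6.13, Dcn at 9.5, Lgals1 at 11.53, Lum at 5.21 and Serpina3n at 5.02, where the other 3 ES dishes read at least 7.67, 11.25, 12.46, 7.79 and 7.02. The interferon-response gene Ifit3 read 5.43 beside at least 8.5, and Cdkn2a 7.82 beside at least 8.44. Pluripotency and epiblast genes are marked as well, with Lefty1 at 12.12, Klf5 at 13.62 and Otx2 at 9.38. The others were Sfrp1 at 10.08, Tex14 at 9.13, Mbd1 at 6.38 and Gata3 at 4.39. The dish was the highest in 5 genes, which include the sterol genes Cyp51 at 11.33, Stard4 at 10.44 and Scd2 at 9.58, next to Cox7a1 at 11.88 and Bmp7 at 8.44. The summed fibroblast markers were also lowest in this dish, at 2420 beside 6440 or more, and how that sum bears on the other values was not tested.

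The marks in iPS cells fell on several dishes. Replicate 1 was highest for Dnmt3b (13.93), Etv5 (10.86) and Orc6 (12.40) and lowest for Actg2 (10.66) and Isg15 (8.83). Replicate 4 was highest for Klf2 (11.12) and Fcgr3 (6.27) and lowest for Gata3 (5.80) and Ldhc (6.38). Replicate 3 was highest for Klf5 (13.16) and Rhox6 (9.5), and replicate 2 lowest for Grhl3 (5.78). The other ES marks were Pold2 at 12.24 and Tek at 6.41 in replicate 4, and Plac1 at 4.92 and Col1a2 at 4.95 in replicate 1, the last 2 below detection.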

How the results depend on the processing

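The 1749 calls (1061 higher and 688 lower in iPS cells) were recounted under 29 alternatives. Without background correction 936 genes were called, 628 higher and 308 lower, and 35 of 175 called genes named in the text lost their call. With an offset of 50 the lower calls numbered 452. The adjusted p alone gave 5851 (2840 higher, 3011 lower), and a 4-fold threshold 414 (310 higher, 104 lower). Leaving out each dish gave 1687 to 1846 calls, 1015 to 1110 higher and 672 to 736 lower. The first 8 and the last 8 arrays of the deposited table, each with 2 dishes per group, gave 1924 and 1669. With this place as a block the count was 1749. Since each place holds 2 dishes per group, that block could not move the changes themselves. The replicate block, with numbers that do not pair the dishes, gave 1675 calls (1007 higher, 668 lower). Leaving out chromosome 8, chosen after seeing the data, gave 1631. The chromosome 8 median minus that of all other genes was -0.36 without background correction, -0.52 in the authors' values, -0.15 with no filter on dim probes, -0.41 at a detection p under 0.05 and -0.49 to -0.46 with each dish left out.

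Of the 175 named calls 125 held under every alternative other than the 4-fold threshold, and 76 also under that. No named call reversed. Uncalled genes that changed sign, with the cause not tested, were Sall4 (-0.073), Stat3 (-0.037) and Xist (-0.056) under median scaling and Col1a2 (0.0013) in the authors' values. Col1a1 (-0.13), Dppa3 (0.038), Ifit3 (-0.25) and Isg15 (-0.070) turned under the replicate block, which leaves ES replicate 5 out of the changes. Array weights turned Col1a1 (-0.14), Dppa3 (0.040) and Xist (-0.0087), and averaging probes turned Sall4 (-0.049) and Xist (-0.014). The first 8 arrays turned Ogn (0.089) and Xist (-0.029), and the last 8 turned Col1a1 (-0.12), Dppa3 (0.073), Ifit3 (-0.046), Lin28a (0.14) and Sall4 (-0.017). Over the fits with 1 dish left out, Col1a1 ranged from -0.13 to 0.67, Dppa3 from -0.30 to 0.028, Ifit3 from -0.24 to 0.96 and Isg15 from -0.033 to 0.95, each with the other sign only without ES replicate 5. Lin28a ranged from -0.22 to 0.034 (turned without iPS replicate 3), Ogn from -0.14 to 0.019 (without ES replicate 4) and Xist from -0.017 to 0.051 (without ES replicate 2). Signal near background limits the dim genes, whose folds depend on the background correction and offset.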

Other observations

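Endothelial markers had 3 rises and 2 falls among 10 tested. Flt1, a receptor of vascular growth factors, had 7.63, 7.83, 7.69 and 7.30 in iPS cells, against 5.75, 5.60, 5.23 and 5.32 in ES cells, and Tek, the angiopoietin receptor, rose by 1.03. Plvap, a gene of fenestrated vessels on chromosome 8, fell by 1.32, and Vwf by 1.05. The claudin family, added after the values were seen, had 4 rises and 0 falls among 13 tested. Besides Cldn11, these were 3 genes of an X-linked cluster, with Cldn34b2 at least 3.57-fold and Cldn34c1 at least 1.66-fold higher in iPS cells and Cldn34b3 at 1.09. Genes of that cluster are alike, and their probes may not separate them. Of 9 tested kallikrein genes, another family added after the values were seen, 0 rose and 3 fell. Klk13 had 5.12, 5.21, 5.38 and 5.73 in iPS cells, against 7.82, 7.87, 7.69 and 7.75 in ES cells.

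Of 16 tested genes of threonine, serine and one-carbon metabolism 1 rose and 4 fell, and 1 and 2 without ES replicate 5. Aldh1l1, a folate enzyme, had 6.05, 5.13, 5.75 and 5.81 in iPS cells, against 7.32, 7.34, 6.87 and 7.24 in ES cells, and Cth, which makes cysteine, rose by 1.30. Of 21 listed genes of the 2-cell embryo 2 were tested, and neither was called. Zscan4c, 1 of the 2, had 8.62, 8.58, 8.60 and 8.47 in iPS cells, against 7.71, 7.12, 7.36 and 8.53 in ES cells, and it was called higher (1.17) without ES replicate 5.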
